A study of Mus musculus with 6 samples.

Results

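The genes described here encode the contractile, calcium-handling and hormone proteins of heart muscle, measured in whole mouse lung. They are the 10 genes Myh6, Myl7, Myl4, Myl3, Nppa, Tnnt2, Tnni3, Actc1, Sln and Ryr2, of 27660 genes on the array, and each was taken by its name in the array files at the probe with the highest mean signal over all lungs. Of these 10, 9 were well above background on at least 3 lungs and were tested among 20245 genes, and Ryr2 was not. The study compared lungs of 3 wild-type and 3 Nogo-A/B knockout mice, all male, 8 weeks old and naive, as part of work on Nogo in asthma. Nogo-A and Nogo-B are proteins made from Rtn4, a reticulon gene. The mouse strain, the allele behind the deletion and how the lungs were cut from the chest are not given in the sources used here. Wild-type lungs are numbered 11, 12 and 13, knockout lungs 1, 11 and 12, and values below are in that order. The design text calls them individual biological replicates. Each RNA was hybridised in 1 colour to its own array of 60-base probes.

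In the mouse, the walls of the pulmonary veins carry a sleeve of striated heart muscle that continues from the left atrium into the lung. This muscle is known to use atrial-type proteins, and in humans it is known as a source of the stray beats that start atrial fibrillation. Thick filaments are built of myosin heavy chains with an essential and a regulatory light chain each, thin filaments of actin with the troponins T, I and C, and contraction is switched by calcium released from the sarcoplasmic reticulum through the ryanodine receptor and pumped back by the SERCA pump. Atria and ventricles differ in which light chains they use: Myl7 and Myl4 in the atrium, Myl2 and Myl3 in the ventricle. RNA of a whole lung does not show which vessel or cell a transcript came from. The place of these transcripts in pulmonary veins is therefore background knowledge and was not tested, and fewer cells of a type cannot be told apart from less RNA per cell.

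Signals are given as log2 of the processed signal over the 75th percentile of the array, so that 0 is the signal that 75% of probes stay under. The 75th percentile lay between 1086.3 and 2343.1 signal units, and between 68.9% and 78.0% of 41174 probes were well above background. The precision of every value is limited by the number of arrays. Probes of the alveolar gene Sftpc (7.83 to 8.78), the alveolar gene Ager (5.09 to 5.70) and the airway gene Scgb1a1 (7.67 to 8.57) were well above background in all 6 lungs, as lung tissue has them. The targeted gene was checked with the Rtn4 probe named for AK047982 (at 29649392 to 29649451 of mm7 chromosome 11), which measured -3.03, -2.89 and -2.27 in wild-type lungs and -8.03, -8.46 and -8.29 in knockout lungs. It was well above background in all 3 wild-type lungs and in 0 of 3 knockout lungs. The brightest Rtn4 probe (29693516 to 29693723 of the same chromosome) lies elsewhere in the gene. Whether it falls in the deleted part is not known, as the allele is not given. This probe was well above background in all 6 lungs, the 3 knockout lungs included. It measured 1.69, 1.62 and 2.36 in wild-type lungs and 1.1, -0.71 and -1.79 in knockout lungs. A probe overlapping its position (29693536 to 29694301) measured 1.66, 1.47 and 2.36 in wild-type lungs. In knockout lungs that probe measured 1.08, -0.50 and -1.96. Another Rtn4 probe (29658879 to 29658938) was well above background in wild type 13 alone. The arrays were scanned on 2 days. Day 1 held wild type 13, knockout 1 and knockout 11, and day 2 held wild type 11, wild type 12 and knockout 12. The day 2 arrays were also those of slide 3, so scan day cannot be told apart from slide or from other differences between these animals. Knockout 1 stood apart from the other 5 lungs in genes of fast skeletal muscle, which bears on Myl3, as described with that gene.

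Near the start sites, 3 of the 9 genes with a promoter window in RefSeq (GRCm38.p6; Sln has none in the table used) held a CArG box, the site that serum response factor is known to bind in muscle promoters. The search covered the 250 bases before the start on both strands, and 1.4% of 27025 promoters of the same length held the motif. The 3 windows are shown because Myl7 is an atrial-type gene, Myl3 a ventricular-type gene and Actc1 is used by both chambers, and the order of the lungs for Myl3 differed from that for Myl7 and Actc1. They lie at chr11:5898783-5899032 on the minus strand, chr9:110763428-110763677 on the plus strand and chr2:114052876-114053125 on the minus strand. Capitals mark the CArG box, which lies 61 to 52 bases before the start in Myl7, 85 to 76 in Myl3 and 47 to 38 in Actc1.
Myl7 promoter: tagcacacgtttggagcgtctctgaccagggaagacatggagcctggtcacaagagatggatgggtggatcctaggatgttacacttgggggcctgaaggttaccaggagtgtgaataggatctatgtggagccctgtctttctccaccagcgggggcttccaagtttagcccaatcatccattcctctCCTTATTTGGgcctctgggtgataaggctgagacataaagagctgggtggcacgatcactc
Myl3 promoter: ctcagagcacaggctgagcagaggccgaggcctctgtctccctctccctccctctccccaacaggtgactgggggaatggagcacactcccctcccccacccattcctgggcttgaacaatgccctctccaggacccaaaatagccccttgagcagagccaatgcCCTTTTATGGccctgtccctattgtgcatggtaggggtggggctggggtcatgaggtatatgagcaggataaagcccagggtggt
Actc1 promoter: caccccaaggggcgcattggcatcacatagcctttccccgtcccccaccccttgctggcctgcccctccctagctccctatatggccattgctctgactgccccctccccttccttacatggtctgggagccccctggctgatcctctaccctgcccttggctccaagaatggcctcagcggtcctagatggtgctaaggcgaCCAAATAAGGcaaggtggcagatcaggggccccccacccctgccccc

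Most other motifs searched on both strands were commoner in promoters at large than the CArG box, and no match overlapped another. CATTCC, the core bound by TEAD factors, was in 4 of the 9 windows (Myh6, Myl3, Myl7 and Tnnt2) and in 12.6% of all promoters. AAGTG, a short core of the site of Nkx2-5, was also in 4 of the 9 (Myh6, Myl4, Myl7 and Nppa) and in 40.8% of all. AGGTGT, the T-box core, was in Nppa and Tnni3 and in 12% of all, AGATAA, which GATA factors bind, in Tnnt2 and in 10.3%, and TATAAA in Nppa and in 13%. The MEF2 site was in 0 of the 9 and in 0.5% of all. A match of letters is no evidence of binding, and a window without a match says only that these letters are not there.

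The probes decide what each gene's signal can show, and 2 pairs are printed for that reason. Both Myl4 probes share 47 bases, in capitals below, and their signals over the 6 lungs differed by only 0.03 to 0.14. They overlap in sequence, so they are not separate evidence. The Myl3 probes lie apart in the transcript (mm7 chromosome 9, 110466830 to 110467124 and 110461523 to 110461582). Their signals differed by -1.43 to 7.35, and no capitals are marked because the pair overlap nowhere in the gene.
Myl4 brightest probe: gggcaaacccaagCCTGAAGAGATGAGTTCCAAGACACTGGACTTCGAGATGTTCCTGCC
Myl4 other probe: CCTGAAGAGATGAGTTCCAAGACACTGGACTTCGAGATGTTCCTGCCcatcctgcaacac
Myl3 brightest probe: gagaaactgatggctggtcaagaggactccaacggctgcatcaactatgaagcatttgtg
Myl3 other probe: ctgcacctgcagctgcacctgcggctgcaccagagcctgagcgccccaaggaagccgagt

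Among the atrial-type genes, the regulatory light chain Myl7 (mm7 chromosome 11, probe 5848640 to 5848699) measured 2.28, 2.12 and 4.68 in wild-type lungs and 3.19, 5.03 and 0.77 in knockout lungs. Its processed signals ran from 1858.7 units in knockout 12 to 60016.8 in wild type 13. Wild type 13 and knockout 11 were high, knockout 12 was the lowest lung, and the 2 genotypes overlapped, at 3.03 ± 1.43 (SD, n = 3) and 3.0 ± 2.13 (SD, n = 3). Between its lowest and highest lung Myl7 differed 19.1-fold in scaled signal.

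Myl4, the essential light chain of the atrium (chromosome 11, probe 104693149 to 104693519), measured 0.93, 1.01 and 3.68 in wild-type lungs and 1.79, 3.56 and -0.60 in knockout lungs. The order of the lungs was wild type 13, knockout 11, knockout 1, wild type 12, wild type 11 and knockout 12, and the genotypes overlapped. Sln, which encodes sarcolipin, a small peptide that slows the SERCA pump (chromosome 9, probe 53883860 to 53883919), measured 0.47, 0.28 and 3.71 in wild-type lungs and 1.42, 3.10 and -1.04 in knockout lungs. Wild type 13 was again the highest lung and knockout 12 the lowest, 27.0-fold apart. A second Sln probe was well above background in 2 lungs, wild type 13 and knockout 11, which were the top lungs of the first.

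Nppa encodes atrial natriuretic peptide, the hormone that atrial muscle releases when stretched (chromosome 4, probe 146991457 to 146991516, the mean of 10 spots). It measured -1.57, -2.23 and 2.50 in wild-type lungs and -3.96, -0.06 and -3.43 in knockout lungs. Wild type 13 stood highest and knockout 11 next, as for Myl4 and Sln, but knockout 1 was here the lowest lung and not the third highest. The means were -0.43 ± 2.56 (SD, n = 3) and -2.48 ± 2.11 (SD, n = 3), and the genotypes overlapped. A second Nppa probe put the lungs in the same order and was not well above background in knockouts 1 and 12.

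The genes shared by both chambers followed the atrial light chains. Myh6, the fast alpha myosin heavy chain of the adult mouse heart (chromosome 14, probe 49813005 to 49813064), measured 0.40, 0.56 and 3.87 in wild-type lungs and 1.36, 3.58 and -0.65 in knockout lungs. Its second probe gave the same order of lungs, from 2.45 in wild type 13 to -1.02 in knockout 12. Actc1, cardiac alpha actin (chromosome 2, probe 113789115 to 113790038), measured 0.48, 0.42 and 3.21 in wild-type lungs and 2.23, 2.48 and -0.08 in knockout lungs. All 3 lungs of day 1 lay above all 3 of day 2, while the genotypes overlapped.

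Tnnt2, the cardiac troponin T that fixes the troponin complex to tropomyosin (chromosome 1, probe 135737607 to 135737919), measured 0.41, 0.82 and 3.86 in wild-type lungs and 2.25, 3.84 and -1.49 in knockout lungs. It spanned 40.9-fold from knockout 12 to wild type 13, with knockout 11 just below the latter. Tnni3, the inhibitory cardiac troponin I (chromosome 7, probe 4077835 to 4077894), measured -0.03, 0.19 and 2.79 in wild-type lungs and 0.67, 2.53 and -0.56 in knockout lungs. The second Tnni3 probe gave the same order of lungs. For both troponins, wild type 13 and knockout 11 were high and knockout 12 was low, and the genotypes overlapped.

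Myl3, the essential light chain of the ventricle, which slow skeletal muscle also uses, did not follow this order. Its brightest probe measured -2.30, -0.71 and -0.14 in wild-type lungs and 4.98, 0.33 and -4.19 in knockout lungs. Knockout 1 was far above the other lungs, with a processed signal of 66760.1 units against 2131.7 for the next highest signal. The other Myl3 probe measured -2.94, -3.23 and -2.39 in wild-type lungs and -2.37, -3.05 and -2.76 in knockout lungs, a range of 0.86 in log2 signal, and showed no such peak. The 2 probes therefore disagree on Myl3, and which of them follows the gene was not tested.

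Ryr2, the calcium release channel of heart muscle (chromosome 13, probe 11486533 to 11489004), could not be followed. None of its 3 probes was well above background on more than 1 lung: 1 was so in knockout 12 alone, 1 in wild type 13 alone and 1 in no lung. Its brightest probe measured -8.23, -7.27 and -7.12 in wild-type lungs and -6.66, -7.20 and -5.99 in knockout lungs, so these are bounds near the detection limit and no fold was drawn.

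**Figure D1:**
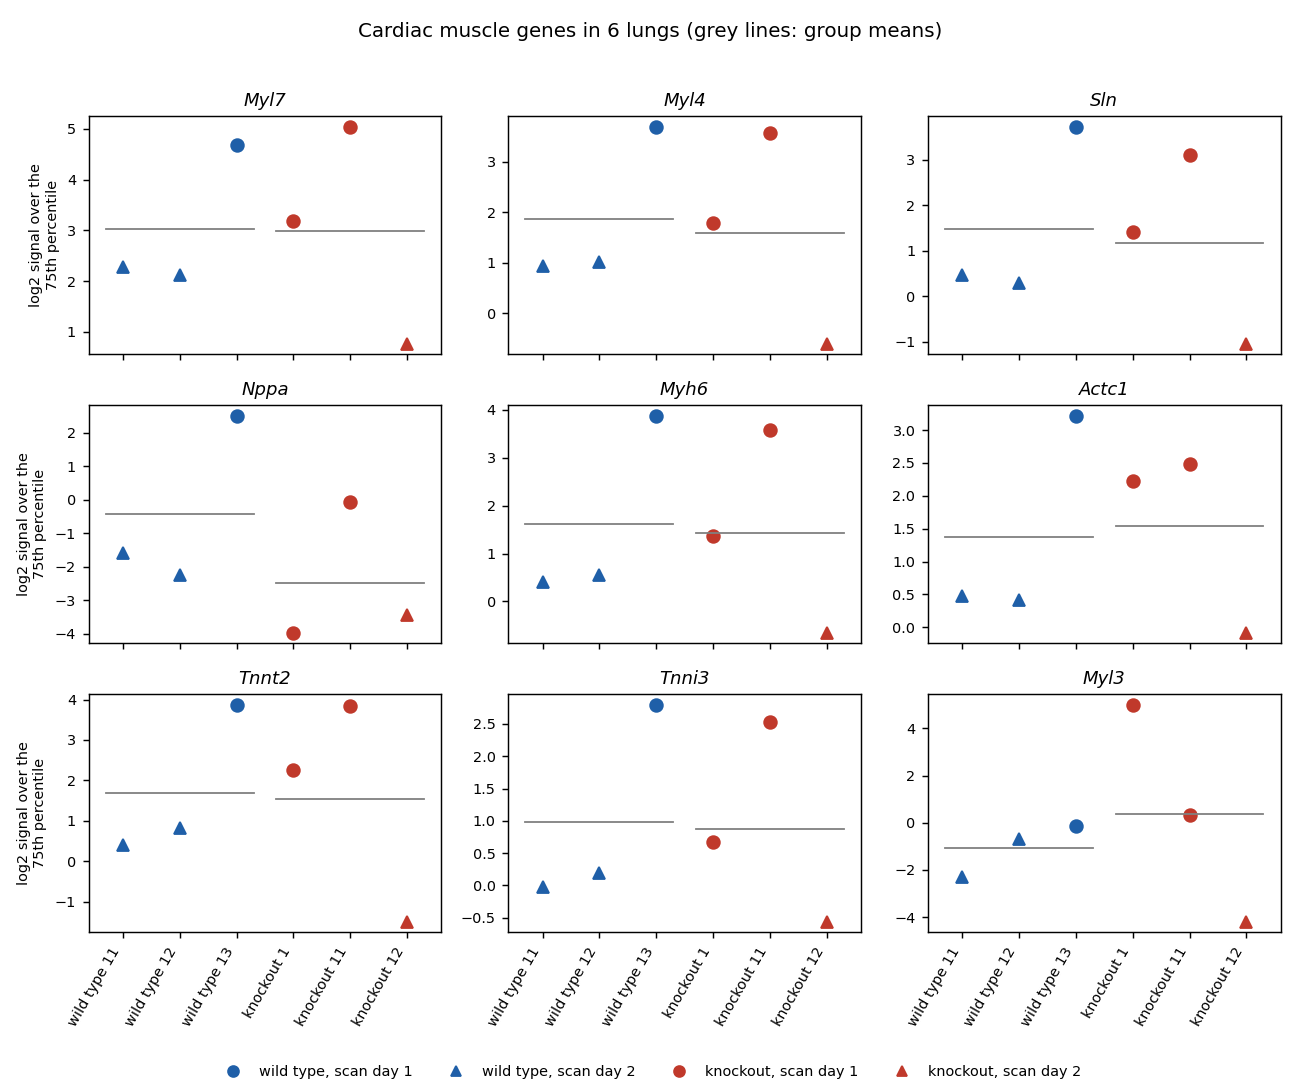
Log2 signal over the array's 75th percentile (vertical axes, a separate scale per gene) for the 9 tested heart muscle genes in each of 6 lungs. Blue marks wild type, red knockout, circles scan day 1, triangles scan day 2 and grey lines the mean of each genotype. Wild type 13 and knockout 11 are highest and knockout 12 lowest in 7 of the 9 panels, and Nppa and Myl3 depart from this in knockout 1.

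Across the lungs these genes varied more than most genes did. Their SD over the 6 lungs lay between 1.35 (Actc1) and 3.09 (Myl3) with a median of 1.80 in log2 signal, against a median of 0.31 over all 20245 genes, of which 3.94% had an SD of at least 1.35. Wild type 13 and knockout 11 were the 2 highest lungs and knockout 12 the lowest for Myl7, Myl4, Sln, Myh6, Actc1, Tnnt2 and Tnni3, that is 7 of 9, where 2.32% of all genes had that order. The order was noticed after the values were seen, so its count is a description.

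Between knockout and wild type, with scan day as a block, limma gave 0 of 9 genes an adjusted p under 0.05, as it did 0% of all genes. The lowest adjusted p of any gene was 0.0617. At an unadjusted p under 0.05, 3 of the 9 were lower in the knockout and 0 were higher, against 1.31% and 0.790% of all genes (2.10% in either direction). These 3 were Actc1 at -0.69 (SE 0.16), Sln at -1.43 (SE 0.47) and Tnnt2 at -1.46 (SE 0.54), whose unadjusted p in limma were 0.00658, 0.0273 and 0.0397 and whose adjusted p was 0.9995 each. The genotypes overlapped for all 9 genes, where 4.0% of all genes had genotypes that did not overlap.

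The fitted differences of the other atrial-type genes were -1.0 (SE 0.54) for Myl7, -1.29 (SE 0.51) for Myl4 and -3.02 (SE 1.25) for Nppa. Those of Myh6 and Tnni3 were -1.26 (SE 0.61) and -0.91 (SE 0.53). Myl3 differed by 0.05 (SE 1.79), the least precise of the 9. The median over the 9 genes was -1.26, against 0.015 over all genes, and 8 of 9 had a fitted value below 0, as did 46.9% of all genes.

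Within each scan day 1 of the genotypes had a single array, so the differences there rest on it. Within day 1, where knockouts 1 and 11 are set against wild type 13, the differences were -0.57 for Myl7, -1.01 for Myl4, -1.45 for Sln and -4.51 for Nppa. Within day 2, where knockout 12 is set against wild types 11 and 12, the same genes differed by -1.42, -1.57, -1.42 and -1.53. The shared genes Myh6, Actc1, Tnnt2 and Tnni3 differed by -1.40, -0.85, -0.82 and -1.19 within day 1 and by -1.13, -0.53, -2.11 and -0.64 within day 2. Myl3 turned, from 2.79 within day 1 to -2.69 within day 2. Thus 8 of 9 were lower in the knockout within both days, as were 15% of all genes.

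The size of these differences depended on the day block. Without it, Myl7 differed by -0.03, Myl4 by -0.29, Sln by -0.33, Tnnt2 by -0.17 and Actc1 by 0.18, the last with its sign turned, and 0 of 9 reached an unadjusted p under 0.05, where 0.943% of all genes did. Leaving out wild type 11, wild type 12, wild type 13 or knockout 12 left 1 of 9 genes at that level in each case, where 1.20%, 1.03%, 7.61% and 7.32% of all genes were. Leaving out knockout 1 gave 4 and leaving out knockout 11 gave 8, at 2.63% and 4.52% of all genes. Without knockout 1, Myh6 differed by -0.77, Tnni3 by -0.47, Myl7 by -0.66 and Nppa by -1.97. Nppa differed by -1.53 without wild type 13, and without knockout 12 Myl7 differed by -0.57 and Tnnt2 by -0.82.

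**Figure D2:**
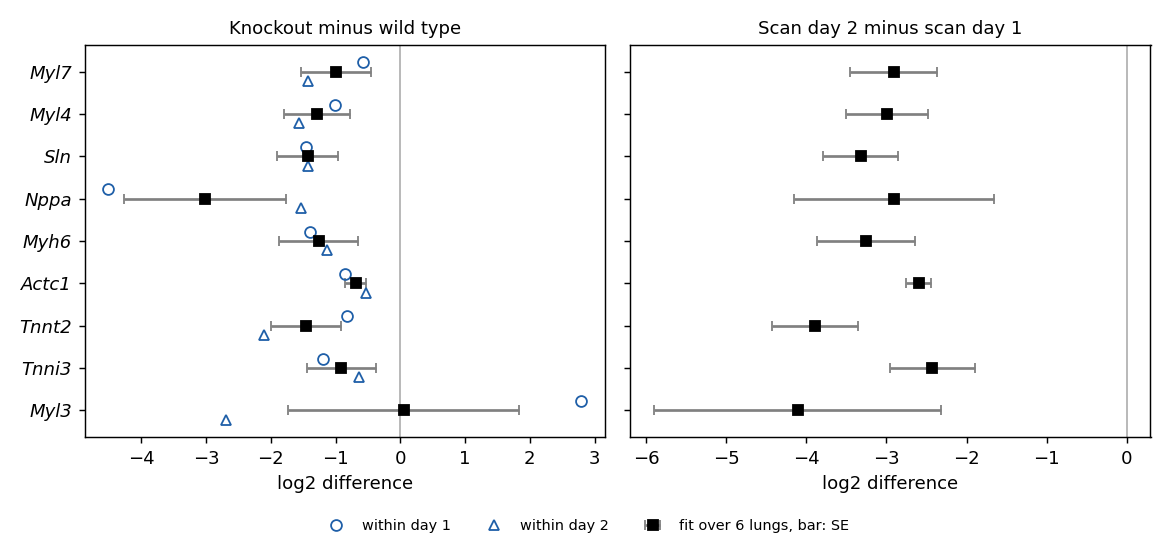
Fitted log2 differences (horizontal axes) of the 9 tested genes, knockout minus wild type on the left and scan day 2 minus day 1 on the right. Squares with bars are the limma fit over 6 lungs with its SE, and open symbols are the differences within each scan day. On the left the squares of 8 genes lie below 0 and Myl3 at 0.05 has day values on both sides, and on the right all 9 lie between -4.11 and -2.43.

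For 8 of the 9 genes the fitted difference between scan days was larger in size than that between genotypes, with Nppa the exception. With genotype in the model, 7 of 9 genes were lower on day 2 at an adjusted p under 0.05 in limma, where 11% of all genes passed in either direction and 8.73% were lower and 2.24% higher. The median of the 9 was -2.99, against 0.044 over all genes. Tnnt2 was 14.8-fold lower (-3.89, SE 0.54, adjusted p 0.0139), Sln 9.98-fold (-3.32, SE 0.47, adjusted p 0.0151) and Myh6 9.55-fold (-3.26, SE 0.61, adjusted p 0.0337). Myl4 was 7.97-fold lower, Myl7 7.50-fold, Actc1 6.06-fold with the smallest error (-2.60, SE 0.16, adjusted p 0.0033) and Tnni3 5.41-fold.

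Nppa at -2.91 (SE 1.25, adjusted p 0.211) and Myl3 at -4.11 (SE 1.79, adjusted p 0.217) did not pass in limma. The days did not overlap, with day 1 higher, for 8 of 9 genes, where 19.5% of all genes had such days. Nppa was the exception, through its low value in knockout 1. Myl3 is counted here by its brightest probe. At its other probe the days overlapped, with knockout 11 of day 1 at -3.05 and knockout 12 of day 2 at -2.76. Without knockout 1 the Nppa difference was -3.96 with an adjusted p of 0.0195, the lowest in a range up to 0.655 over the alternatives.

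These calls depended on which array was left out. The count of 7 was 1 without wild type 11, 2 without wild type 12, 1 without wild type 13 and 1 without knockout 12, where 4.80%, 5.17%, 3.08% and 5.01% of all genes passed. It was 8 without knockout 1 and 7 without knockout 11, at 7.0% and 12.2% of all genes. The median of the 9 stayed between -3.34 and -2.57 in these 6 fits.

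Atrial-type and ventricular-type genes were set side by side. Of the 7 listed atrial-type genes 6 were tested, with a median day difference of -2.95. At an adjusted p under 0.05, 4 of these 6 were lower on day 2, where 8.73% of all genes were. Of these 4, Kcnj3 passed the filter on dim probes only through the lungs of day 1, so its day difference is no measured fold. Of 5 ventricular-type genes 0 passed in either direction, with a median of -0.10, and the difference between the 2 lists was not tested. The light chains Myl3 and Myl2 differed between days by -4.11 (SE 1.79) and -0.69 (SE 1.4). Irx4, Hey2 and Myh7 differed by -0.03, -0.10 and 0.56. The median therefore does not show that the light chains were unchanged. In the knockout against wild-type comparison, 1 of 6 atrial-type genes was lower at an unadjusted p under 0.05 (Sln) and 0 of 5 ventricular-type genes. The medians were -1.17 and 0.05, and 1.31% of all genes were lower at that level.

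Kcnj3, a subunit of the potassium channel through which acetylcholine slows the atrium, was well above background only on the 3 lungs of day 1. It measured -6.83, -6.94 and -3.14 in wild-type lungs and -5.65, -4.09 and -7.26 in knockout lungs, highest in wild type 13 and lowest in knockout 12, as Myl4 was. Bmp10, a growth factor of right atrial muscle, lay near the detection limit in all 6 lungs, between -6.69 and -6.22. Its lungs did not follow the other atrial-type genes.

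Among the ventricular-type genes, Myl2, the regulatory light chain of the ventricle, measured -3.78, -5.07 and -5.71 in wild-type lungs and -1.07, -4.95 and -5.67 in knockout lungs. Knockout 1 was its highest lung, and wild type 13, the top lung of Myl4, its lowest. Myh7, the slow beta myosin heavy chain, measured 3.08, 3.15 and 2.21 in wild-type lungs and 3.51, 2.55 and 3.25 in knockout lungs. It varied 2.47-fold where Myh6 varied 22.9-fold, and wild type 13 was its lowest lung. The transcription factors Irx4 (-5.25 to -4.29) and Hey2 (-3.60 to -2.94) varied little.

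The high values of Myl3 and Myl2 in knockout 1 stood beside high values of skeletal muscle genes in the same lung. The 14 genes of the fast skeletal muscle list, all measured, summed to 883.0 times the 75th percentile in knockout 1. Wild-type lungs had sums of 3.53, 17.7 and 7.63, and knockouts 11 and 12 had 9.90 and 2.09. Myh4, a fast myosin heavy chain, was at 7.22 in knockout 1 against -3.41 to 2.12 elsewhere, and Acta1, skeletal alpha actin, at 6.26 against -2.92 to 0.25.

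Tnni2, the fast skeletal troponin I, was at 7.23 in knockout 1 against -0.75 to 1.94. Pvalb, the calcium buffer of fast fibres, was at 3.72 against -8.91 to -2.54. The Pvalb probe was well above background on only 4 lungs, so its low end is a bound. In the slow skeletal list, Tnni1 was at -2.42 in knockout 1 against -5.99 to -5.47 in the other 5 lungs. The fast skeletal light chain Myl1, chosen after its values were seen, measured -1.82, 1.0 and -0.01 in wild-type lungs. In knockout lungs Myl1 measured 6.42, 0.54 and -4.18. The probe of Myl3 that peaked in knockout 1 shared runs of at most 6 bases with the Myl1 probes. Probes were compared only with probes, so this cannot show whether the Myl3 probe also binds Myl1 RNA. The part of skeletal muscle RNA in the Myl3 and Myl2 values was not tested. Without knockout 1 the Myl3 difference between genotypes was -1.34.

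**Figure D3:**
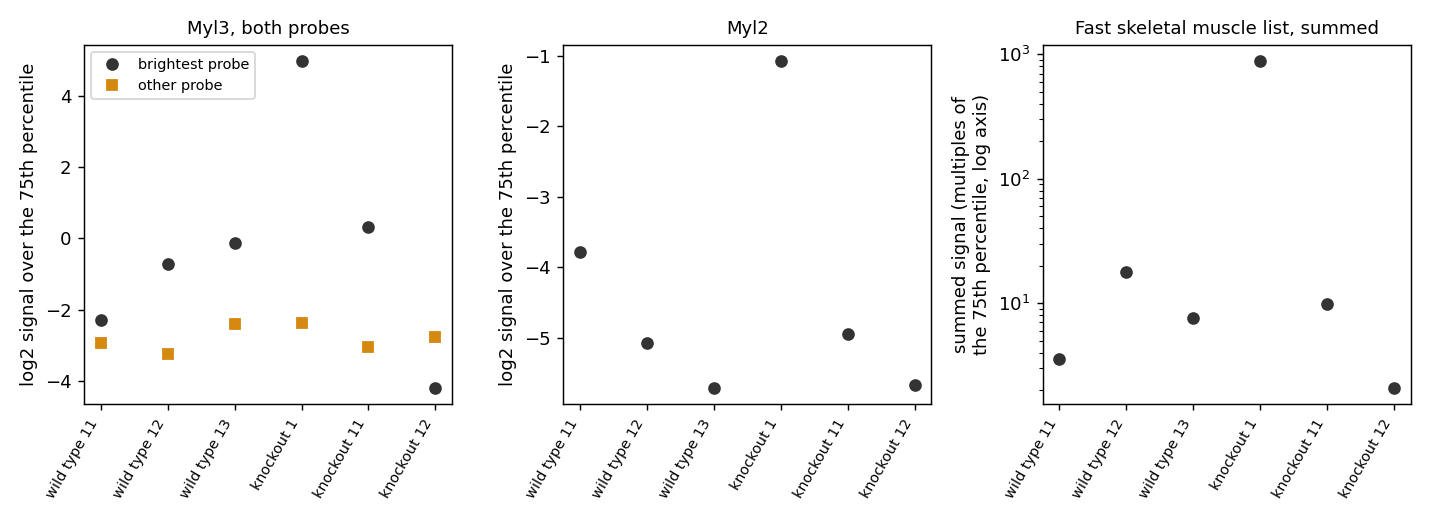
Log2 signal of both Myl3 probes (left) and of Myl2 (middle), and the summed scaled signal of the 14 fast skeletal muscle genes on a log axis (right), in each of 6 lungs. Knockout 1 is the highest lung for the brightest Myl3 probe at 4.98, for Myl2 at -1.07 and for the skeletal sum at 883.0, while the other Myl3 probe stays between -3.23 and -2.37.

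Other genes of the heart muscle sarcomere and Z-disc were tested beside them. Of 16 listed genes 15 were tested, with a median day difference of -2.78. At an adjusted p under 0.05, 9 were lower and 1 higher on day 2, where 8.73% and 2.24% of all genes were. The 1 higher gene of the list was Nebl, the nebulette of the Z-disc, named after its values were seen. The summed signal of the list was 113.0 times the 75th percentile in knockout 1 and 33.5 to 51.6 in the other 5 lungs. Of the 9, Ttn, the giant protein titin (2.72), Tcap, the titin cap (5.58), and Actn2, the actinin of the Z-disc (0.76), were highest in knockout 1. These 3 were also named after their values were seen. Lmod2, described below, was highest there too, at -4.23 against -4.25 in wild type 13. The fast skeletal sum in knockout 1 was 883.0. The part of skeletal muscle RNA in these values was not tested. Without knockout 1 the list had 12 genes lower and 1 higher on day 2, where 7.0% of all genes passed in either direction. Between genotypes, 2 of the list were lower at an unadjusted p under 0.05 and 0 were higher, with a median of -0.18. The shares of all genes were 1.31% and 0.790%. Csrp3, the muscle LIM protein of the Z-disc, measured -2.54, -2.45 and 0.89 in wild-type lungs and 0.09, 0.66 and -4.52 in knockout lungs, a difference of -1.27 (SE 0.38). Myoz2, a Z-disc partner of calcineurin, differed by -0.94 (SE 0.32).

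Mybpc3, cardiac myosin-binding protein C, measured -1.61, -1.57 and 1.07 in wild-type lungs and -1.05, 0.86 and -2.98 in knockout lungs. Its genotype difference of -1.28 (SE 0.53) missed an unadjusted p under 0.05, and its day difference of -2.78 passed. Lmod2, which nucleates thin filaments, differed by -0.50 (SE 0.23) between genotypes and by -3.68 (SE 0.23) between days, and was well above background only on the 3 lungs of day 1, so the latter, 1 of the 9 calls, is no measured fold.

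The calcium handling and excitation list, all 11 tested, had 2 genes lower in the knockout at an unadjusted p under 0.05 and 0 higher. Its median was -0.18, and 1.31% of all genes were lower and 0.790% higher at that level. Pln, the phosphoprotein that restrains the SERCA pump beside sarcolipin, measured -4.61, -4.72 and -1.09 in wild-type lungs and -3.97, -2.41 and -8.31 in knockout lungs. Its difference was -2.87 (SE 0.55), and it was not well above background in knockout 12, so this is no measured fold. Casq2, the calcium store protein of heart muscle, measured -4.75, -4.44 and -0.58 in wild-type lungs and -2.29, -1.25 and -6.28 in knockout lungs. It differed by -1.44 (SE 0.33), with p 0.00699 before adjustment in limma and 0.9995 after, and it too was not well above background in knockout 12, so this is no measured fold.

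Both genes put wild type 13 highest and knockout 12 lowest, as Sln did. On day 2 both were lower at an adjusted p under 0.05, the only 2 of the 11 to pass. At that level 8.73% of all genes were lower on day 2. Atp2a2, the SERCA pump itself, measured 0.71, 0.88 and 2.59 in wild-type lungs and 1.11, 2.23 and 0.59 in knockout lungs. It varied less than its regulators, with a genotype difference of -0.56 (SE 0.36) and a day difference of -1.44 (SE 0.36) that did not pass. Hrc, a histidine-rich calcium-binding protein of the reticulum, differed by -1.35 (SE 1.27) between genotypes and was highest in knockout 1 at 2.33 and not well above background in knockout 12.

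Of the hormone list, Nppb, which encodes the B-type natriuretic peptide, stayed between -4.95 and -4.22 and had no such range as Nppa. Corin, the protease that cuts the Nppa precursor, measured -6.34, -5.81 and -3.16 in wild-type lungs and -5.91, -4.13 and -5.83 in knockout lungs. Corin was highest in wild type 13 and knockout 11, the top lungs of Nppa.

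Lists of other cell types were read beside these values. Of 11 smooth muscle genes, 7 were lower on day 2 at an adjusted p under 0.05 and 0 higher. The median of the 11 was -1.15, and 8.73% of all genes were lower and 2.24% higher at that level. Between genotypes 0 of the 11 reached an unadjusted p under 0.05, where 2.10% of all genes did. The summed signal of the 11 was 40.0 to 78.8 in the wild type and 36.0 to 102.0 in the knockout. Cnn1, smooth muscle calponin, measured 0.29, 0.50 and 3.85 in wild-type lungs and 2.76, 3.90 and -0.18 in knockout lungs, and Myocd, the cofactor of serum response factor in smooth and heart muscle, had a day difference of -3.24 (SE 0.23). Myocd is 1 of these 7, but its probe was well above background only on the 3 lungs of day 1, so that value is no measured fold.

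Of 7 mesothelial genes, markers of the lung's outer lining, 6 were higher on day 2 at an adjusted p under 0.05 and 0 lower. Their median day difference was 1.59, and 2.24% of all genes were higher at that level. Without knockout 1, 3 of the 7 were higher, where 7.0% of all genes passed in either direction. Msln, mesothelin, measured 5.51, 4.93 and 3.31 in wild-type lungs and 3.26, 3.37 and 5.48 in knockout lungs, so it ran against the heart muscle genes between days. The summed mesothelial signal was 26.5 to 77.7 in the wild type and 23.5 to 74.5 in the knockout.

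Of the 8 adipocyte genes 6 were tested, and 4 of them were lower in the knockout at an unadjusted p under 0.05 and 0 higher. The median of the 6 was -2.59, and 1.31% of all genes were lower and 0.790% higher at that level. After adjustment over all genes, 0 genes of any list passed between genotypes. Adipoq, the adipocyte hormone adiponectin, measured 0.17, -2.32 and 0.95 in wild-type lungs and -3.12, -2.01 and -4.21 in knockout lungs. Its difference was -3.33 (SE 0.75), and the differences of Cfd, Plin1 and Retn were -3.35 (SE 0.85), -2.71 (SE 0.82) and -2.46 (SE 0.72). The summed adipocyte signal was 4.62 to 30.0 in the wild type and 3.0 to 7.37 in the knockout. Ucp1, which defines brown fat, was not well above background in any lung.

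Wild type 13 was highest and knockout 12 lowest in both the adipocyte and the atrial sum. Knockout 11, high in atrial genes at 54.1, had an adipocyte sum of 7.37. Knockout 1 had an adipocyte sum of 5.04 and wild type 11 of 19.9. Thymocyte genes were at background except Dntt, with 1 of 4 measured and 0 past either threshold between days or genotypes. The part of tissue other than lung and vein, or of how much of each lung was taken, in the heart muscle values was not tested.

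**Figure D4:**
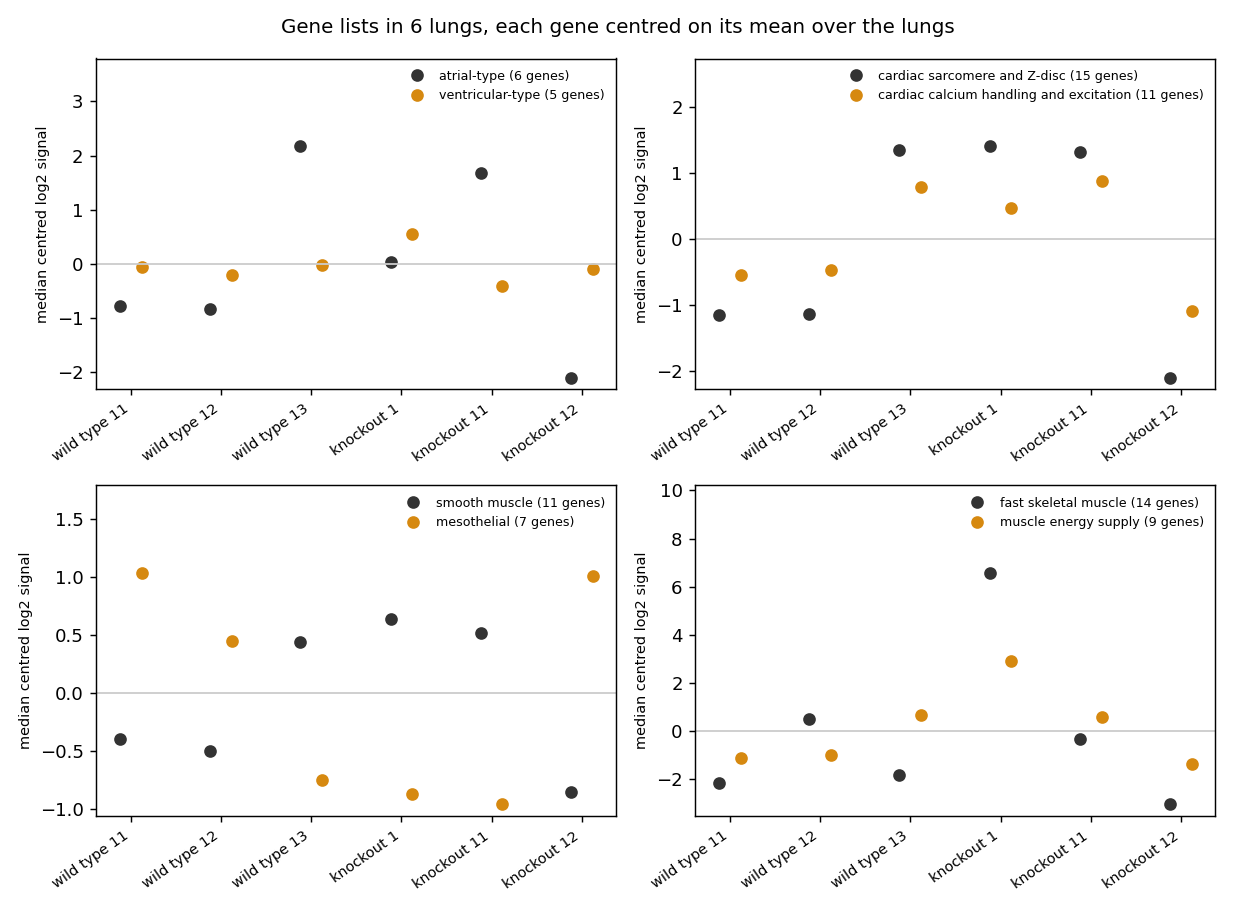
Median over a list's tested genes of the log2 signal centred on each gene's mean over 6 lungs (vertical axes, separate scales), for 8 lists in 4 panels. The atrial-type median runs from -2.10 in knockout 12 to 2.17 in wild type 13 while the ventricular-type median stays between -0.41 and 0.56, the mesothelial median is high in the lungs of day 2, and the fast skeletal median reaches 6.56 in knockout 1.

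The pattern of the atrial-type genes was summarised as the mean centred log2 signal of Myl7, Myl4, Nppa and Sln, which was -0.62, -0.86 and 2.49 in wild-type lungs and -0.54, 1.76 and -2.23 in knockout lungs. Over the 6 lungs, Pearson's r with this profile, each gene left out of its own, was 0.985 for Myh6, 0.981 for Tnni3, 0.971 for Sln, 0.962 for Myl4, 0.940 for Tnnt2 and 0.932 for Myl7. It was 0.893 for Actc1, 0.775 for Nppa and 0.326 for Myl3. These values are descriptions over 6 lungs that share 2 scan days.

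Of 1937 other genes with an SD of at least 0.88, 9 had an r above 0.95. The gene most like the profile was Mybpc3 (0.990), the cardiac myosin-binding protein described above, and the next were Aldh1b1 (0.984), a mitochondrial aldehyde dehydrogenase, Mapk10 (0.972), a JNK kinase, and Mybphl (0.968), a myosin-binding protein of the atrium. Mybphl measured -4.05, -4.03 and -0.08 in wild-type lungs and -2.42, -0.37 and -5.46 in knockout lungs, and was lower on day 2 by -4.01 (adjusted p 0.0146 in limma). Kcnj3 (0.961) was the next after Mybphl.

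Below it were the transcripts AK052874 and LOC240444, the LIM protein Fhl2 (0.955), the secreted protein Pi16 (0.955) and the heart repeat protein Lrrc10 (0.949). Pi16 measured 0.34, 0.19 and 1.58 in wild-type lungs and 0.69, 1.53 and -0.96 in knockout lungs. All 10 genes had wild type 13 and knockout 11 as their highest lungs. The profile they were chosen to resemble was highest in those lungs too, so this follows from the choice.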

How the data were processed

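RNA was extracted from 6 mouse lungs and, after amplification, labelled with Cy3 for Agilent arrays, per the labels' protocols. Scanner files as deposited by the authors give each spot's intensity. Their headers name Agilent Feature Extraction 9.5.1.1, and the submitters' processing notes name 9.1. The processed signal had been background-subtracted and detrended and not scaled between arrays, per the file headers. The authors' deposited table holds log2 values with array medians of 8.087 to 8.09, which followed the scanner's median spot signal (Spearman 0.99996 to 0.99998 across probes, which are not replicates). How that table was made was not given in the sources used here. It served as an alternative. Probe positions are on mm7, as in the files.

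Spots flagged as outliers (48 to 99 of 43379 per array) were removed, repeated spots were averaged per probe, and 30 probes were dropped. The values are log2 of the processed signal minus each array's 75th percentile. A gene is its brightest probe among those well above background on at least 3 of 6 arrays, whatever their group. A table of RefSeq genes (GRCm38) named 32719 probes, and 8455 kept the name in the files. The genotype comparison used limma 3.58.1 under R 4.3.3 (lmFit, eBayes, two-sided, Benjamini-Hochberg over 20245 genes), with scan day as a block, because both days held both genotypes. The fit was also run on simulated data. The outcome is not given here, so that run is no evidence on power or false calls. Figures were drawn with matplotlib 3.10.9. Each animal had its own array, so the p-values reflect differences between animals together with those between arrays. They rest on these animals alone.

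Beside the 10 genes and Rtn4, the text names up to 4 genes of each list with the smallest p, the markers Myl2, Myh7, Myh4, Acta1, Ucp1, Msln and Bmp10, and the 10 genes with the highest r with the atrial-type profile among genes with an SD of at least 50% of its SD. The genes and lists were chosen with earlier results of these data known. In all, 19 alternatives were run: normalizations, background correction, the filter on dim probes, the mean of a gene's probes, the variance model, blocks, single days and each array left out.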

Additional observations from a re-analysis of the deposited data

How the results depend on the processing

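Of the 9 heart muscle genes, 0 passed an adjusted p of 0.05 between genotypes in limma under any of the 19 alternatives. Their count at an unadjusted p under 0.05, 3 as reported, was 5 both on the authors' values and with normexp as background correction. It was 1 with slide as a random block, 0 without the day block, and from 1 to 8 with an array left out. Counts within single days are left out, as 1 genotype had a single array there. Over all genes, the adjusted threshold was passed by 1 gene under normexp, 1 on the authors' values and 2 with the slide block, against 0 as reported. The unadjusted count of 425 was 191 without the day block, 723 with the slide block and 3865 within day 2, and from 209 to 1541 with an array left out. The 8 list genes at that level were 3, 5 and 29 in those 3 settings. The Actc1 difference turned to 0.18 without the day block. That of Myl3 turned to -2.69 within day 2 and, with an array left out, to -2.69 without wild type 13 and -1.34 without knockout 1, in a range of -2.69 to 2.79. Between days, 7 genes passed as reported and from 1 to 8 with an array left out, of 623 to 2461 genes in all, and median scaling gave 3648 genes against 2220. Tnni3 missed the day threshold with no filter on dim probes (adjusted p 0.0699, in a range of 0.016 to 0.237 over the alternatives). The causes were not tested.

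Lungs 11 and 12 share a number between genotypes, and their deviations from the genotype means correlated at -0.246 and 0.417. The lungs numbered 11 were scanned on different days and those numbered 12 on the same day. These correlations therefore mix number with scan day and cannot show whether the numbers pair the animals. With the number as a replicate block, 0 of 9 genes reached an unadjusted p under 0.05, where 631 of 20245 genes did. The median of the 9 was 0.65. The differences then were 0.99 for Myh6, 0.70 for Myl7, 0.52 for Myl4, -0.43 for Myl3, 0.15 for Nppa, 0.56 for Tnnt2, 0.91 for Tnni3, 0.75 for Actc1 and 0.65 for Sln, all with the opposite sign. That fit has no scan day term and takes the difference from lungs 11 and 12 alone, and wild type 11 and knockout 11 were scanned on different days. Signal over background limits Ryr2, Bmp10, Kcnj3, Corin, Lmod2, Myocd, Pln, Casq2, Hrc, Pvalb and AK052874, whose probes lay near the detection limit in some or all lungs.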

Other observations

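Of 13 listed transcription factors of heart and pacemaker muscle 8 were measured. On day 2, 1 of the 8 was lower and 1 higher at an adjusted p under 0.05 in limma. The shares of all genes were 8.73% lower and 2.24% higher. Between genotypes 0 of the 8 had an unadjusted p under 0.05 or passed after adjustment. Nkx2-5, the homeobox factor of heart muscle, measured -5.68, -6.03 and -3.38 in wild-type lungs and -4.90, -4.61 and -5.55 in knockout lungs. It was highest in wild type 13, the top lung of Myh6 and Sln. Its day difference of -1.63 (SE 0.41) did not pass (adjusted p 0.0677 in limma). Tbx5, which heart and lung mesenchyme share, was lower on day 2 by -1.73 (SE 0.19, adjusted p 0.00796 in limma). Tbx18, a T-box factor of the sinus node and of pericardial lining cells, named after its values were seen, was higher on day 2 by 1.32 (SE 0.23, adjusted p 0.0273 in limma). Gata4 was lowest in knockout 11 at -5.24 and highest in knockout 12 at -3.51. Its day difference of 1.05 (SE 0.32) did not pass (adjusted p 0.112 in limma).

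Genes of the energy supply of striated muscle peaked in knockout 1 together with the skeletal muscle genes. Of the 9, 3 were lower on day 2 at an adjusted p under 0.05 in limma and 0 higher, with a median of -2.40. At that level 8.73% of all genes were lower and 2.24% higher. Myoglobin (Mb), the oxygen store of heart and slow skeletal muscle, measured -0.35, -0.08 and 3.04 in wild-type lungs and 3.95, 2.39 and -2.86 in knockout lungs. Fabp3, the heart-type fatty acid carrier, measured 0.62, 0.30 and 2.47 in wild-type lungs and 2.72, 2.26 and 0.08 in knockout lungs. Both were highest in knockout 1, unlike Myl7 and Myl4, and both were also high in wild type 13 and knockout 11. Among 4 genes of venous endothelium, 0 differed between days or genotypes in limma at an adjusted p under 0.05. Slc6a2, the noradrenaline transporter found in pulmonary vein endothelium, stayed between 1.41 and 2.36.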
